A study of Mus musculus with 15 samples.

Results

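The genes described here are 10 regulators and targets of the ATF4 stress response, Atf4, Atf5, Ddit3, Cebpg, Trib3, Nupr1, Asns, Chac1, Sesn2 and Vldlr. They were chosen by name, with earlier results of these data known. They are 10 of the 23284 genes of a table of read counts from mouse E14 embryonic stem (ES) cells. The table holds 15 libraries in 5 groups of 3. Every library came from unsorted cells that were nucleofected with 5 nmol of an antisense oligonucleotide (ASO), received 100 pmol of siRNA per well 7 h later and were harvested on day 2, so the controls went through both transfections as well. The LINE1 siDux group had the LINE1 ASO and siRNA against Dux, and the LINE1 control group had the LINE1 ASO and siControl. The RC siNcl group had the RC ASO, which the labels name as the control, and siRNA against Ncl, the RC siDux group had the RC ASO and siRNA against Dux, and the RC control group had the RC ASO and siControl. All groups used the same cell line, and the labels do not say whether replicates were separate cultures, so p-values measure the spread between these libraries, which may be technical.

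ATF4 is a basic leucine zipper (bZIP) transcription factor at the centre of the integrated stress response. Kinases that sense amino acid shortage, endoplasmic reticulum stress, haem shortage or double-stranded RNA phosphorylate the translation factor eIF2alpha. Most translation then slows, while upstream open reading frames in the Atf4 transcript let its main reading frame be translated more. ATF4 binds C/EBP-ATF response elements together with C/EBP partners and turns on genes of amino acid uptake and synthesis, tRNA charging, redox balance and, under lasting stress, cell death. RNA levels of Atf4 do not show its translation, and ATF4 protein was not measured in these libraries. The levels of its targets are not a measure of ATF4 alone, since some, such as Sesn2, are also targets of p53.

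The core letters TGATGNAA of the C/EBP-ATF response element were searched on both strands in RefSeq promoter windows (GRCm38.p6, 250 bases before to 50 after each start, 300 in all). All 10 genes matched a RefSeq symbol, with 12 windows between them. The letters were present for 5 of the 10, Chac1, Nupr1, Asns, Vldlr and Trib3, against 3.97% of all 32851 windows and 4.51% of 27025 genes. A match is a description of the letters and was not tested for enrichment, and the count files rest on another build, mm9, so no position here comes from them. The upstream windows of the matching genes are shown because Chac1 and Nupr1 had the largest changes below, and the matches stand in capitals. The nearest base of the match lay 186 bases before the start in Chac1, 103 in Nupr1, 16 in Asns and 193 before the second listed start of Vldlr. In Trib3 it began at base 15 after the start, so only 30 bases around it are shown.
Chac1 (chr2:119350992-119351241, plus strand): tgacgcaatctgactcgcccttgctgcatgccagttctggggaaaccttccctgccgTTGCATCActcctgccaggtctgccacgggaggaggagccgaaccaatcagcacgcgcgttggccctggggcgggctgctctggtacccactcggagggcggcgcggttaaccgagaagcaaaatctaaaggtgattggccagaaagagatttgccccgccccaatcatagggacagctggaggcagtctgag
Nupr1 (chr7:126625471-126625720, minus strand): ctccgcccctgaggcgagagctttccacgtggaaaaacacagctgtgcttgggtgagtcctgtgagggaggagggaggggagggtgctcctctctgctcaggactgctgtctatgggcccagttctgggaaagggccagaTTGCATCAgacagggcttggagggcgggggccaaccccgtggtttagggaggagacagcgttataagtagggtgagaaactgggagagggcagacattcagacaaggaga
Asns (chr6:7693210-7693459, minus strand): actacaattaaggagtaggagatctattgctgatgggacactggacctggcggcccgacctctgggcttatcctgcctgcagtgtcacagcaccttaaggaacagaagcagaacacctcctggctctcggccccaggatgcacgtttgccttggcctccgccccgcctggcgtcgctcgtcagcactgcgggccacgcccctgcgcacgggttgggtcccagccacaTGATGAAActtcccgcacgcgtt
Vldlr (chr19:27216770-27217019, plus strand): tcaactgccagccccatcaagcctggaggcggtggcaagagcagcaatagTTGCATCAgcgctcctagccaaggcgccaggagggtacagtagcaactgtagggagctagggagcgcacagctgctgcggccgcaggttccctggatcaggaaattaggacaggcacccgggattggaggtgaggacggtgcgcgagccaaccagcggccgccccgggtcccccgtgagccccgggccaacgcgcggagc
Trib3 (chr2:152344028-152344057, minus strand): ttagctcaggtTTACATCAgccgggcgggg
In Chac1, Nupr1, Vldlr and Trib3 the element reads on the strand opposite to the gene, and in Asns on the gene's own strand.

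Counts assigned to genes came to 22.7 to 27.6 M per library in LINE1 siDux, 17.4 to 21.0 M in LINE1 control, 9.55 to 14.9 M in RC siNcl, 11.5 to 15.7 M in RC siDux and 10.1 to 17.4 M in RC control. Ncl, the nucleolin gene targeted by siNcl, averaged 593 ± 67.6 CPM in RC siNcl and 5127 ± 931 CPM in RC control (SD, n = 3 each). Dux is a multicopy gene whose reads may be split between copies, and it averaged 0.161 CPM in RC siDux and 0.228 CPM in RC control. The summed level of 8 ES cell markers was 3377 to 3935 CPM in LINE1 siDux, 3582 to 3964 CPM in LINE1 control, 3520 to 4236 CPM in RC siNcl, 4197 to 4948 CPM in RC siDux and 4289 to 5845 CPM in RC control. Of the 8 markers, 4 were called lower and 0 higher in LINE1 control against RC control, where 9.69% of genes tested were lower and 9.35% higher. In RC siNcl against RC control 2 were lower and 0 higher, where 15.6% were lower and 16.7% higher. They were Zfp42 (550 ± 59.3 and 956 ± 229 CPM) and Pou5f1 (780 ± 67.3 and 1252 ± 275 CPM, SD, n = 3 each). Without a call, the means of Nanog, Klf4 and Tdgf1 were higher in RC siNcl, and those of Sox2, Esrrb and Utf1 lower. In RC siDux against RC control 1 was higher, Klf4, and 0 lower, where 6.09% of genes tested were higher and 4.50% lower. The summed level of 6 fibroblast markers was 21.9 to 31.0 CPM in LINE1 siDux, 25.6 to 30.3 CPM in LINE1 control, 38.6 to 46.8 CPM in RC siNcl, 34.5 to 44.3 CPM in RC siDux and 25.6 to 51.2 CPM in RC control. Col1a1 made up most of it, with 17.1 to 39.2 CPM over all libraries, Col1a2 had 4.05 to 10.6 CPM, Col3a1 0.543 to 2.42 CPM, and Dcn, Lum and Postn up to 0.436 CPM, with Lum at 0 in every RC siNcl and RC control library. The part of these markers in the results was not tested. Some libraries stood apart from their group: the chi-square per degree of freedom between replicates of a group was 32.7 and 47.8 for RC control replicate 2, 19.3 and 14.0 for LINE1 control replicate 3, and 21.8 and 11.4 for LINE1 siDux replicate 3, against 2.96 to 7.56 for all other pairs. Levels are given as counts per M (CPM) scaled by TMM, and a change is called where edgeR's quasi-likelihood test gives a Benjamini-Hochberg adjusted p under 0.05 over the 14696 genes tested. All 10 genes passed the filter on low counts. In bulk libraries fewer cells expressing a gene and less RNA per cell cannot be told apart.

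**Figure D1:**
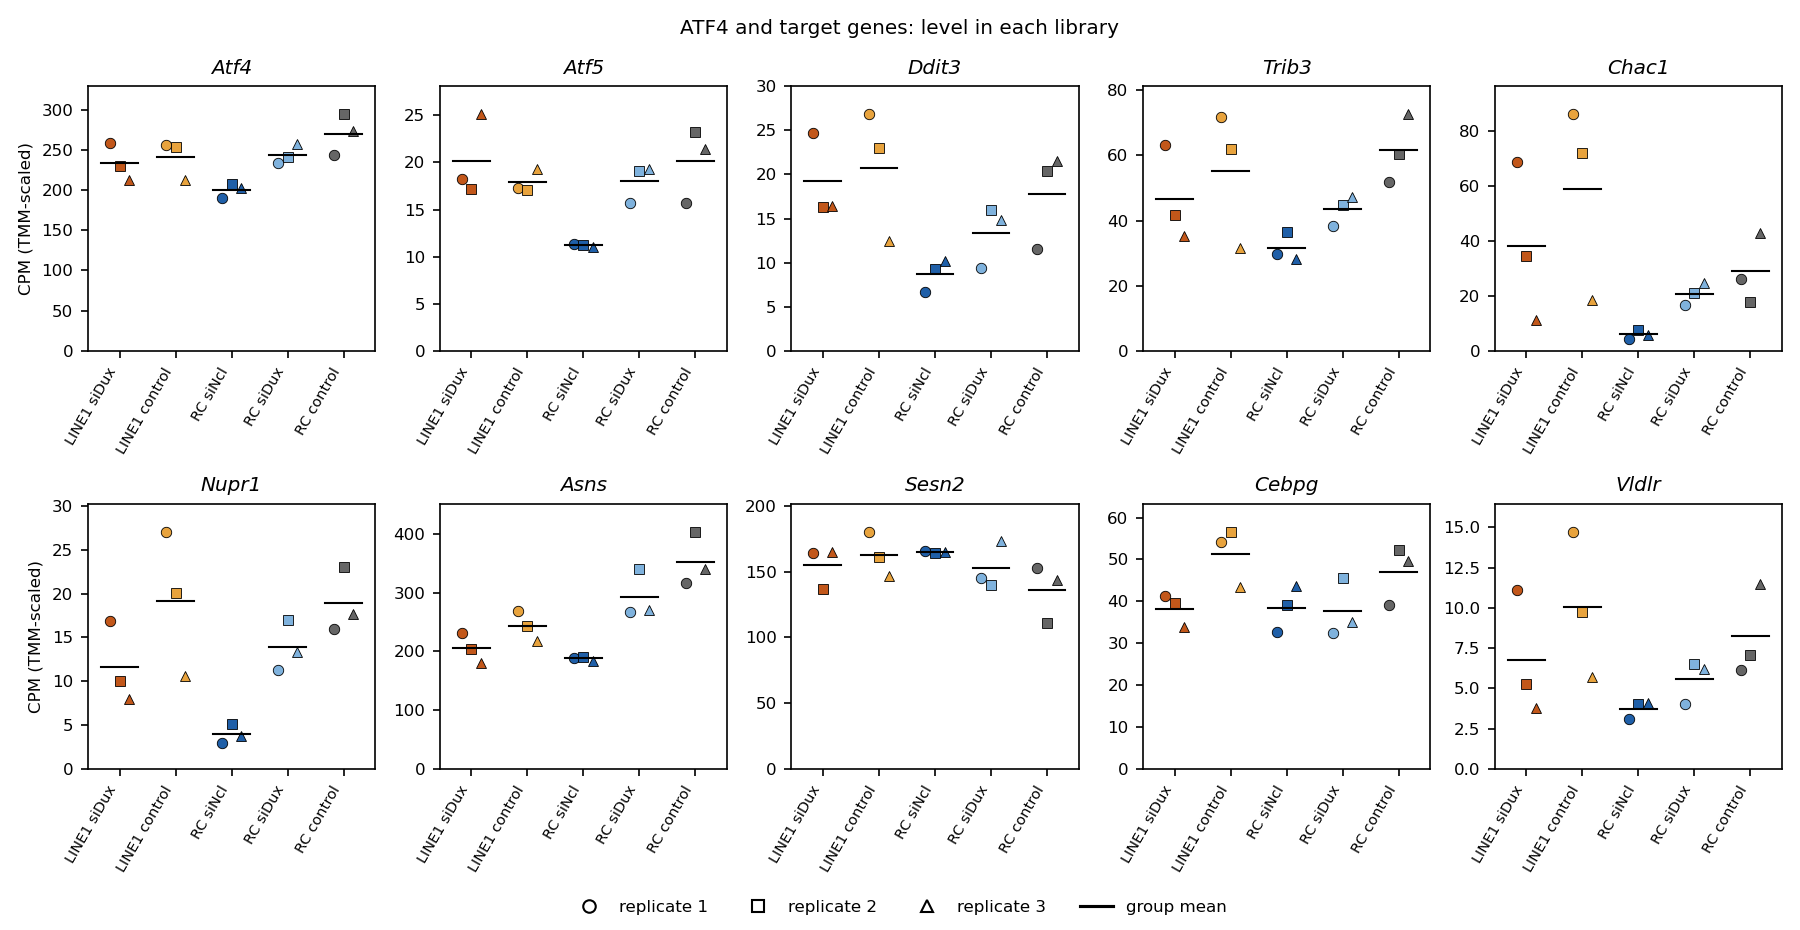
Level of each of the 10 genes in every library, in CPM scaled by TMM on a linear axis from 0, by group. Symbols are libraries, with circles, squares and triangles for replicates 1, 2 and 3, and the bar is the group mean. The RC siNcl libraries lie lowest on average for 8 genes, and Chac1 spreads from 11.1 to 68.7 CPM in LINE1 siDux and from 18.4 to 86.1 CPM in LINE1 control.

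Depletion of Ncl was set against siControl under the same ASO. In RC siNcl, 8 of the 10 genes fell and 0 rose, where 15.6% of all genes tested fell and 16.7% rose. Since the genes were chosen with earlier results of these data known, such counts describe them and are no test. Chac1 and Nupr1 fell most, to 0.206 and 0.209 of their RC control levels, Asns, Atf5, Trib3, Ddit3 and Vldlr fell to between 0.448 and 0.553, and Atf4 fell to 0.740. Cebpg and Sesn2 were not called. The median log2 change of the 10 genes was −0.94, against −0.01 for all genes tested. For the 8 genes that fell, all RC siNcl libraries were below all RC control libraries, as they were for 20.3% of genes tested.

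Among the transcription factors, Atf4 had 190, 208 and 202 CPM in RC siNcl and 244, 294 and 273 CPM in RC control. Its log2 change was −0.43 ± 0.10 (SE, edgeR adjusted p = 0.00303). Although small, the change separated the groups without overlap. Atf5, a relative of Atf4 that also responds to mitochondrial stress, had 11.3, 11.2 and 11.02 CPM in RC siNcl and 15.7, 23.2 and 21.4 CPM in RC control. The RC siNcl libraries were nearly equal while RC control spread more widely, and the log2 change was −0.85 ± 0.17 (edgeR adjusted p = 0.00110). Ddit3 encodes CHOP, a bZIP factor linked to cell death under lasting stress. It had 6.71, 9.33 and 10.2 CPM in RC siNcl and 11.6, 20.4 and 21.5 CPM in RC control, a log2 change of −1.02 ± 0.30 (edgeR adjusted p = 0.0169). The nearest libraries of both groups lay close together, 10.2 and 11.6 CPM. Cebpg, which encodes a C/EBP partner that forms dimers with ATF4, had 32.7, 39.1 and 43.7 CPM in RC siNcl and 39.1, 52.2 and 49.7 CPM in RC control. The groups overlapped, and the log2 difference of −0.28 ± 0.15 was not called (edgeR adjusted p = 0.168).

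Trib3 and Nupr1 are stress-induced genes that feed back on the response. Trib3 encodes a pseudokinase that binds ATF4 and CHOP and restrains them, and it had 29.8, 36.6 and 28.1 CPM in RC siNcl against 51.7, 60.5 and 72.6 CPM in RC control. The log2 change was −0.97 ± 0.26 (edgeR adjusted p = 0.00841), with a wide gap between the groups. Nupr1 encodes a small chromatin-associated stress protein. It had 2.98, 5.06 and 3.74 CPM in RC siNcl and 16.00, 23.1 and 17.7 CPM in RC control, so the highest RC siNcl library was far under the lowest RC control library. Its log2 change was −2.26 ± 0.35 (edgeR adjusted p = 0.000156).

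The metabolic targets fell as well. Chac1 encodes a gamma-glutamyl cyclotransferase that breaks down glutathione, and it had 4.26, 7.76 and 5.95 CPM in RC siNcl against 26.2, 17.9 and 42.8 CPM in RC control. Its log2 change was −2.28 ± 0.62 (edgeR adjusted p = 0.0105), and the RC control libraries spread from 17.9 to 42.8 CPM. Asns, the asparagine synthetase gene, had 188, 191 and 184 CPM in RC siNcl and 316, 403 and 341 CPM in RC control. Its log2 change of −0.91 ± 0.12 was the most precise of the larger changes and had the smallest adjusted p of the 10 genes (edgeR, 3.09e-05). Vldlr encodes a receptor for lipoproteins and reelin, and it had 3.09, 4.01 and 4.07 CPM in RC siNcl and 6.15, 7.08 and 11.5 CPM in RC control. Its log2 change was −1.16 ± 0.41 (edgeR adjusted p = 0.0410), and the nearest libraries of both groups were 4.07 and 6.15 CPM. Sesn2 encodes a sestrin that senses leucine and restrains mTORC1 and is known as a target of p53 as well as of ATF4. It had 166, 164 and 165 CPM in RC siNcl and 153, 111 and 144 CPM in RC control. It was the one gene of the 10 with every RC siNcl library above RC control, as was the case for 22.1% of genes tested, but the log2 difference of 0.28 ± 0.12 was not called (edgeR adjusted p = 0.0877).

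Single libraries decided some of these calls. Ddit3 was not called without RC control replicate 3 (log2 −0.86, edgeR adjusted p = 0.0614) or RC siNcl replicate 1 (−0.88, adjusted p = 0.0693), Vldlr was not called without RC control replicate 3 (−0.82, adjusted p = 0.179) or any RC siNcl library (−1.06, −1.21 and −1.23 without replicates 1, 2 and 3) or with a filter of 5 CPM in 3 libraries (−1.14, adjusted p = 0.0503), and Sesn2 was called without RC control replicate 1 (0.37, adjusted p = 0.0439). With scaling by the ERCC spike-in RNAs Chac1 and Nupr1 alone were called, at −2.32 and −2.22. The log2 changes of the other 6 were −0.38 for Atf4, −0.73 for Atf5, −0.92 for Ddit3, −0.91 for Trib3, −0.83 for Asns and −1.09 for Vldlr, with SEs of 0.41 to 0.46. The summed level of 15 p53 targets was 4438 to 5386 CPM in RC siNcl and 1415 to 1609 CPM in RC control, and that of 7 genes of the 2-cell-like state was 62.3 to 110 CPM in RC siNcl and 14.1 to 19.7 CPM in RC control. The part of these differences in the results above was not tested.

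**Figure D2:**
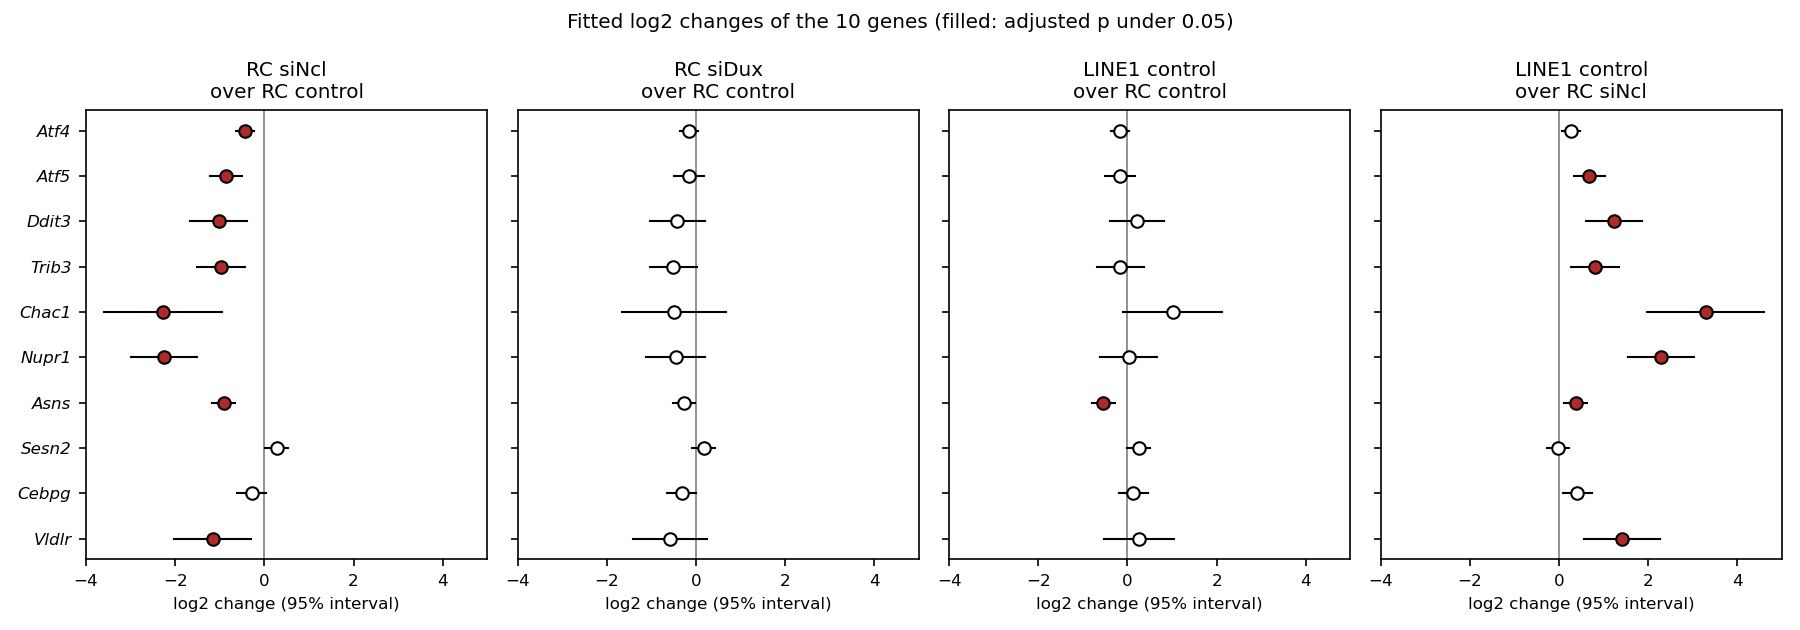
Log2 change of each of the 10 genes (rows) in RC siNcl, RC siDux and LINE1 control over RC control, which share the RC control libraries, and in LINE1 control over RC siNcl, with the 95% interval from the edgeR fit. Filled points are called at an adjusted p under 0.05, and open points are not. In RC siNcl against RC control 8 points are called on the lower side, from −0.43 for Atf4 to −2.28 for Chac1.

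The other genes of the pathway were taken as lists, also chosen with earlier results of these data known. RC siNcl was again set against RC control. Of 12 aminoacyl-tRNA synthetase genes, which charge tRNAs, 12 fell and 0 rose, with a median log2 change of −0.69. Aars averaged 307 ± 28.3 CPM in RC siNcl and 724 ± 47.6 CPM in RC control (SD, n = 3 each), and Nars 274 ± 18.5 and 605 ± 85.8 CPM in the same groups. Of 13 genes of amino acid and one-carbon synthesis, 11 fell and 0 rose, with a median of −1.13. Psat1, of serine synthesis, averaged 223 ± 15.2 CPM in RC siNcl and 536 ± 82.1 CPM in RC control, and Aldh18a1, of proline synthesis, 43.1 ± 6.47 and 123 ± 15.9 CPM. Of 9 amino acid transporter genes, 7 fell and 1 rose. Slc7a1, which takes up cationic amino acids, averaged 53.3 ± 3.32 CPM in RC siNcl and 158 ± 29.3 CPM in RC control, and the transporter that rose was Slc38a2, with 777 ± 57.7 and 521 ± 75.1 CPM. Beside these counts, 15.6% of all genes tested fell, with a median log2 change of −0.01.

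The counts for genes upstream of ATF4 and of other stress arms are set beside the 16.7% of all genes tested that rose and the 15.6% that fell. Of 8 genes, those for eIF2alpha, its kinases and its phosphatase subunits and Gcn1l1, 2 rose and 0 fell. Those that rose were the haem-regulated kinase gene Eif2ak1 and the endoplasmic reticulum kinase gene Eif2ak3. Eif2ak1 averaged 98.1 ± 6.08 CPM in RC siNcl and 69.9 ± 5.41 CPM in RC control, and Eif2ak3 44.4 ± 2.89 and 32.8 ± 2.05 CPM. Of 15 endoplasmic reticulum chaperone and quality control genes, with Xbp1 and Atf6 counted among them, 3 rose and 1 fell, with a median log2 change of −0.06. Of 9 other stress effectors tested, 1 rose and 2 fell. Ddit4, an mTORC1 inhibitor that several stress pathways induce, averaged 280 ± 64.7 CPM in RC siNcl and 137 ± 35.2 CPM in RC control. Eif4ebp1, a translation repressor, averaged 171 ± 5.96 and 236 ± 4.45 CPM, and Herpud1, of endoplasmic reticulum protein degradation, 9.07 ± 0.729 and 19.0 ± 5.71 CPM. Of 12 other bZIP factor genes, 2 rose and 2 fell, and those that rose were the immediate early genes Fos, with a log2 change of 1.75 ± 0.25, and Jun, with 1.16 ± 0.17 (edgeR adjusted p = 7.66e-05 and 9.19e-05). Of 5 relatives of Sesn2, Trib3 and Chac1 tested, 3 rose and 0 fell. Sesn3 averaged 34.9 ± 3.12 CPM in RC siNcl and 17.4 ± 3.51 CPM in RC control, Sesn1, which also counts among the p53 targets below, 24.4 ± 1.61 and 15.5 ± 1.39 CPM, and Trib2 12.01 ± 3.84 and 6.18 ± 1.45 CPM. Of 9 relatives of Vldlr in the lipoprotein receptor family 1 rose, Lrp1, and 1 fell, Lrp8. Of 15 p53 targets, 14 rose and 0 fell, and of 12 hypoxia genes 1 rose and 2 fell.

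**Figure D3:**
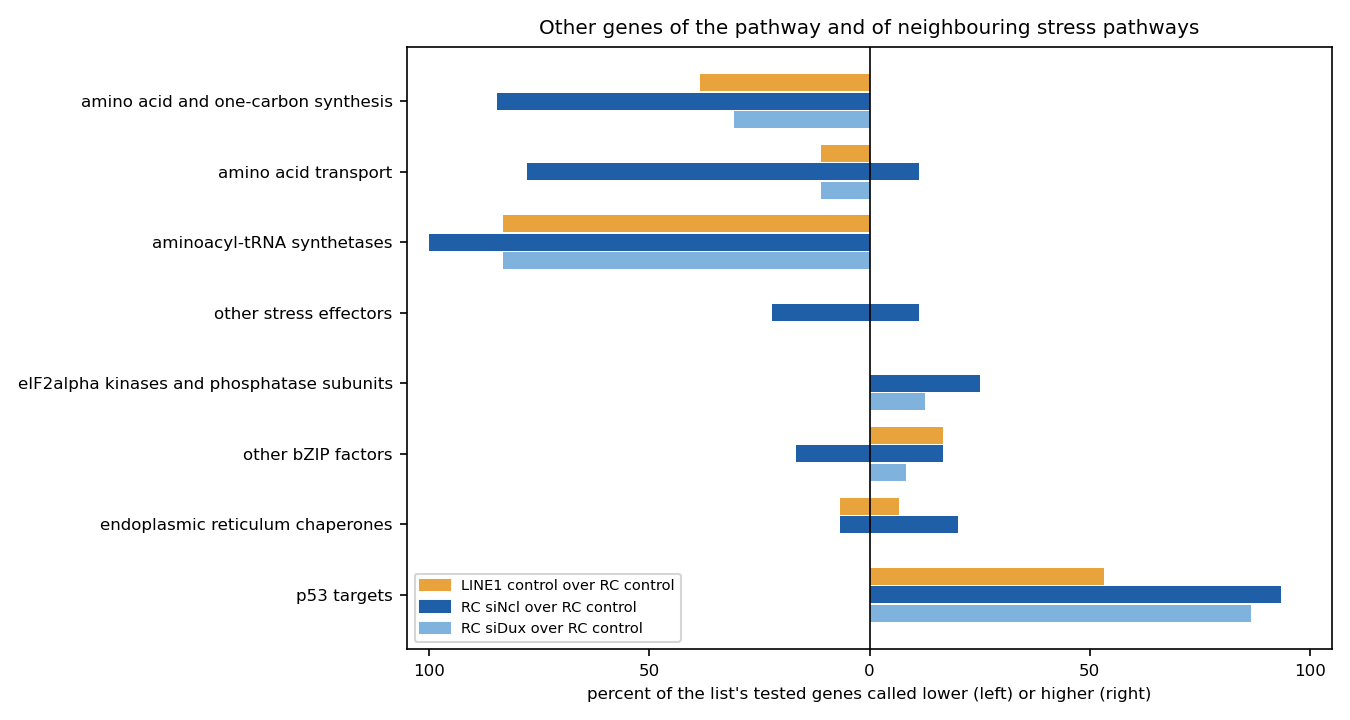
Percent of the tested genes of each list that were called higher (right) or lower (left) in LINE1 control, RC siNcl and RC siDux over RC control, which share the RC control libraries. Up to 15 genes make up a list. The lists of aminoacyl-tRNA synthetases, amino acid and one-carbon synthesis and amino acid transport lie mostly on the lower side in RC siNcl, and the p53 targets on the higher side. Synthetases were also lower for 10 of 12 genes in both LINE1 control and RC siDux. The p53 targets were also higher there, for 8 of 15 genes in LINE1 control and 13 of 15 in RC siDux.

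The LINE1 ASO was set against the RC ASO under both siRNAs, with RC control shared with the comparison above. In LINE1 control against RC control, 1 of the 10 genes fell and 0 rose, where 9.69% of genes tested fell and 9.35% rose. The gene that fell was Asns, with 269, 243 and 217 CPM in LINE1 control and 316, 403 and 341 CPM in RC control. These groups did not overlap, and the log2 change was −0.54 ± 0.12 (edgeR adjusted p = 0.00847). The call was absent in a fit of these groups alone (adjusted p = 0.0668) and with ERCC scaling, where the log2 change was −0.28. Under siDux, Asns had 231, 204 and 181 CPM in LINE1 siDux and 267, 341 and 271 CPM in RC siDux. It again fell without overlap, by 0.51 ± 0.12 on the log2 scale (edgeR adjusted p = 0.0309), as 1 of 10 genes where 0.749% of genes tested fell and 2.31% rose. That call was absent without RC siDux replicate 1 or 2 (−0.57 and −0.38) or without LINE1 siDux replicate 2 or 3 (−0.50 and −0.41), and with ERCC scaling (−0.69). The lists that hold the neighbours of Asns in metabolism were counted in both comparisons, with 0 genes higher in each. In LINE1 control against RC control, 10 of 12 synthetase genes, 5 of 13 synthesis genes and 1 of 9 transporter genes were lower. Fewer were lower in LINE1 siDux against RC siDux, 2 of 12 synthetase, 1 of 13 synthesis and 0 of 9 transporter genes. Calls over all genes tested were fewer there too, 0.749% against 9.69% lower. In LINE1 control against RC control the median log2 changes were −0.45 for synthetase, −0.35 for synthesis and −0.07 for transporter genes. In LINE1 siDux against RC siDux they were −0.31, −0.38 and −0.19. Whether the lists changed less under siDux was not tested on these counts.

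Chac1 had 86.1, 72.2 and 18.4 CPM in LINE1 control and 26.2, 17.9 and 42.8 CPM in RC control. Replicates 1 and 2 of LINE1 control were above every RC control library, and replicate 3 was within their range. The fitted log2 difference was 1.01 ± 0.53 with a 95% interval of −0.11 to 2.13 and was not called (edgeR adjusted p = 0.190). Without LINE1 control replicate 3 it was 1.44 and called (adjusted p = 0.0412), and without LINE1 control replicate 1 it was 0.64 (adjusted p = 0.531). In LINE1 siDux Chac1 had 68.7, 34.7 and 11.1 CPM, against 16.7, 21.1 and 24.6 CPM in RC siDux. Replicate 3 was again the lowest, now under every RC siDux library. The log2 difference was 0.88 ± 0.54 and not called (edgeR adjusted p = 0.377). It was 0.14 (adjusted p = 0.947) without LINE1 siDux replicate 1 and 1.33, still not called (adjusted p = 0.116), without LINE1 siDux replicate 3. It was called at 1.33 (adjusted p = 0.0249) only when both LINE1 ASO libraries numbered 3 were left out, an alternative chosen after seeing the data. The other 8 genes were not called in either comparison with the LINE1 ASO. Among them Ddit3 had 24.7, 16.3 and 16.4 CPM in LINE1 siDux and 9.37, 15.97 and 14.8 CPM in RC siDux, without overlap, as had 15.4% of genes tested on the higher side (edgeR adjusted p = 0.323). Among the other bZIP genes, Jun and the stress factor gene Atf3 rose in LINE1 control against RC control. Jun averaged 26.7 ± 4.19 CPM against 10.97 ± 1.62 CPM, and Atf3 13.4 ± 5.78 CPM against 5.09 ± 1.99 CPM (SD, n = 3 each). Jun was also called higher in RC siDux, at 18.7 ± 3.73 CPM, against the same RC control libraries. It was called higher in LINE1 siDux, at 32.2 ± 3.91 CPM, against RC siDux.

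The libraries of the LINE1 ASO differed from each other in several of these genes more than in most genes tested. Chac1 had the highest ratio of the highest to the lowest library in LINE1 siDux, 5.97 on the scale of CPM + 0.5, and 0 of 14696 genes tested had a larger one, where the median gene had 1.19. In LINE1 control the ratio of Chac1 was 4.58, 3 genes had a larger one, and the median was 1.21. Vldlr had 11.1, 5.30 and 3.80 CPM in LINE1 siDux and 14.7, 9.75 and 5.69 CPM in LINE1 control. Nupr1 had 16.9, 10.02 and 7.94 CPM in LINE1 siDux and 27.0, 20.1 and 10.6 CPM in LINE1 control. Trib3 had 63.2, 41.6 and 35.2 CPM in LINE1 siDux and 71.8, 62.0 and 31.5 CPM in LINE1 control. In these genes replicate 3 was the lowest of both groups. Ddit3 had 24.7, 16.3 and 16.4 CPM in LINE1 siDux and 26.8, 23.0 and 12.4 CPM in LINE1 control, so replicate 3 was lowest in LINE1 control only. In LINE1 control the ratios of Ddit3, Trib3, Nupr1 and Vldlr were larger than those of 98.6%, 99.1%, 99.5% and 99.5% of genes tested. Atf5 went the other way, with 18.2, 17.2 and 25.1 CPM in LINE1 siDux and 17.3, 17.1 and 19.3 CPM in LINE1 control. Sesn2, Atf4, Asns and Cebpg had ratios of 1.20 to 1.29 in both groups, near the median gene. In Atf4, Asns and Cebpg replicate 3 was still the lowest of both groups. It had 212, 181 and 33.8 CPM in LINE1 siDux and 212, 217 and 43.5 CPM in LINE1 control. In replicate 3 the 2-cell-like sum was within or close to the range of the other replicates, 38.4 against 37.9 and 28.6 CPM in LINE1 siDux and 110 against 124 and 98.7 CPM in LINE1 control. The sum of p53 targets in replicate 3 was 3653 against 2836 and 2916 CPM in LINE1 siDux and 2378 against 2352 and 2153 CPM in LINE1 control.

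**Figure D4:**
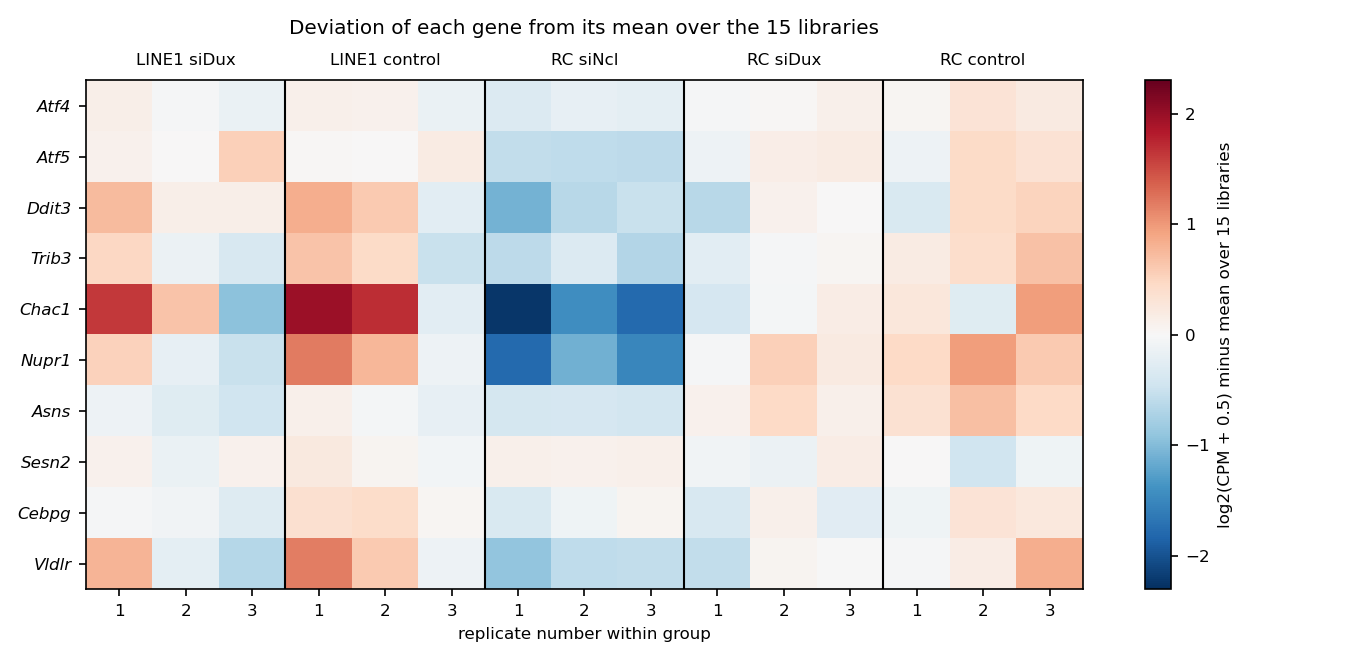
Deviation of each library from the mean over the 15 libraries, in log2(CPM + 0.5), for the 10 genes. Columns are libraries in groups of 3, with red above and blue below the mean. Replicate 3 of both LINE1 ASO groups stands lowest within its group for Chac1, Vldlr, Nupr1, Trib3, Atf4, Asns and Cebpg, and highest for Atf5.

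LINE1 control was also set directly over RC siNcl, using the same libraries as above. Of the 10 genes 7 were higher in LINE1 control and 0 lower, where 9.45% of genes tested were higher and 10.4% lower. The largest difference was in Chac1, 3.29 ± 0.62 on the log2 scale (edgeR adjusted p = 0.00144), with even LINE1 control replicate 3 at 18.4 CPM above the highest RC siNcl library at 7.76 CPM. Nupr1 was higher by 2.29 ± 0.35 (adjusted p = 0.000260), Vldlr by 1.42 ± 0.40 (adjusted p = 0.0203) and Ddit3 by 1.23 ± 0.30 (adjusted p = 0.00809). Trib3, Atf5 and Asns were higher by 0.81, 0.68 and 0.37, while Atf4, Cebpg and Sesn2 were not called. The libraries did not overlap for 7 genes, against 19.2% of genes tested: those called other than Trib3, whose lowest LINE1 control library, 31.5 CPM, lay under the highest RC siNcl library, 36.6 CPM, and Atf4. Chac1, Nupr1, Ddit3 and Atf5 were called whichever single library was left out. Trib3 (0.58 to 0.78), Vldlr (1.05 without LINE1 control replicate 1) and Asns (0.30 to 0.39) were not called without LINE1 control replicate 1 or RC siNcl replicate 1 or 3, nor Trib3 and Asns without LINE1 control replicate 2 or Vldlr and Asns without RC siNcl replicate 2, and with ERCC scaling 3 genes were called, Chac1, Nupr1 and Vldlr. Without LINE1 control replicate 3, Atf4 (0.36) and Cebpg (0.53) were called too.

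siRNA against Dux gave no call among the 10 genes under either ASO. Their median log2 change was nonetheless −0.37 in RC siDux over RC control, against −0.01 for all genes tested. In LINE1 siDux over LINE1 control the median was −0.24, against −0.00 for all genes tested. In RC siDux against RC control 0 rose and 0 fell, where 6.09% of genes tested rose and 4.50% fell. At an unadjusted p under 0.05, Asns alone was on the lower side (267, 341 and 271 CPM in RC siDux, 316, 403 and 341 CPM in RC control). DESeq2 made 0 calls there too. Trib3 had 38.3, 44.9 and 47.1 CPM in RC siDux and 51.7, 60.5 and 72.6 CPM in RC control, without overlap, as had 13.0% of genes tested on the lower side. Its log2 difference was not called (edgeR adjusted p = 0.204), with a 95% interval of −1.04 to 0.02. In the same comparison 10 of 12 synthetase genes, 4 of 13 synthesis genes and 1 of 9 transporter genes fell and 0 rose, and 13 of 15 p53 targets rose. In LINE1 siDux against LINE1 control 0 rose and 0 fell with edgeR and with DESeq2, where edgeR gave 0.544% and 0.306% of genes tested. At an unadjusted p under 0.05, Nupr1 (16.9, 10.02 and 7.94 CPM in LINE1 siDux, 27.0, 20.1 and 10.6 CPM in LINE1 control) and Cebpg were on the lower side. Cebpg had 41.3, 39.6 and 33.8 CPM in LINE1 siDux and 54.1, 56.5 and 43.5 CPM in LINE1 control, without overlap, as had 10.9% of genes tested on the lower side. It was not called (edgeR adjusted p = 0.239), and its unadjusted 95% interval was −0.74 to −0.11. The effect of siDux was also compared between the ASOs by an interaction term, which called 0% of genes tested in either direction and none of the 10, also at an unadjusted p under 0.05 and with DESeq2. The 95% interval of the interaction was −0.18 to 0.40 for Atf4 and −1.72 to 1.46 for Chac1 on the log2 scale. For Chac1, values across that wide range remain compatible with these libraries.

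Set against RC siDux, a second group under the same ASO, RC siNcl had 3 of the 10 genes lower and 0 higher, where 7.10% of genes tested were lower and 9.53% higher. They were Nupr1 (log2 −1.81 ± 0.36, edgeR adjusted p = 0.00228), Atf5 (−0.69 ± 0.17, adjusted p = 0.00933) and Asns (−0.64 ± 0.12, adjusted p = 0.00157). For 6 genes all RC siNcl libraries were below all RC siDux libraries, as for 19.9% of genes tested, and for 0 above, as for 20.9%. The 6 were these 3 and Atf4, Chac1 and Trib3. With replicates paired by number 5 genes were lower, with Atf4 (adjusted p = 0.0447) and Chac1 (log2 −1.80, adjusted p = 0.0494) added. With ERCC scaling Atf5 (−0.93) and Asns (−0.90) were not called, and Chac1 (−2.08) was.

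In the order of group means, RC siNcl was lowest for 8 of the 10 genes. The gap to the next group was larger than the larger SD of both groups for 7 of them, all but Asns, whose next group was LINE1 siDux (205 ± 24.9 CPM, against 188 ± 3.32 CPM in RC siNcl). No library of RC siNcl overlapped with the next group for 5, Atf4, Atf5, Trib3, Chac1 and Nupr1. The order was worked out for the 10 genes only, so its counts have no share over all genes tested beside them. Against single groups, all RC siNcl libraries were lower for 20.3% of genes tested with RC control. The share was 19.9% with RC siDux and 19.2% with LINE1 control. Elsewhere in the order the groups could hardly be ranked: of the other 32 neighbouring pairs 6 differed by more than the larger SD, and 0 were without overlap. LINE1 control had the highest mean for 5 genes, Ddit3, Chac1, Nupr1, Cebpg and Vldlr, and RC control for 3, Atf4, Trib3 and Asns. Sesn2 had the reverse order, highest in RC siNcl and lowest in RC control, with overlap between each group and the next.

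Across the 15 libraries the 10 genes moved together unevenly. Over their 45 pairs the Pearson r of log2(CPM + 0.5) had a median of 0.64 and was over 0.8 in 13. The highest values were 0.91 for Chac1 and Vldlr and for Trib3 and Vldlr, and 0.90 for Atf4 with Trib3 and with Nupr1. Sesn2 was in all 7 pairs with a value below 0, the lowest being −0.58 with Asns. Among 10634 genes with a mean of at least 5 CPM, the genes most like Chac1 included Herpud1 (0.97) and Tnrc6c (0.95), those most like Nupr1 were Aldh3a2, Cbr4 (both 0.97) and Mthfd2 (0.96), and those most like Asns were Oxct1, Mars and Yars (each 0.94). Atf4 was most like Cdk6 and Pck2 (both 0.93), Trib3 like Otub2 (0.94) and Pck2 (0.89), and Sesn2 like Robo1 and Pdpr (both 0.89). These values describe the likeness over libraries that share their scaling and their groups. The values of the 45 pairs were not set against those of pairs of other genes.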

How the data were processed

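The deposited table holds whole-number read counts per gene, with 92 ERCC spike-in rows, for all 15 libraries of total RNA prepared with a directional kit, per the labels. Per the submitters' processing notes, the authors used Trim Galore 0.4.0, TopHat2 2.0.9, mm9, R 3.3.0 and DESeq2 1.12.3. The deposited table's own name says that the counts come from featureCounts; its settings for strand and for reads that map to several places are not given in the sources used here. A second deposited table, of repeats, was not used.

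From the counts, CPM were computed with TMM scaling, leaving out ERCC rows (0.273% to 0.652% of gene counts). Genes were filtered with filterByExpr, which left 14696. edgeR 4.0.16 (R 4.3.3) fitted all 5 groups by quasi-likelihood with 10 residual degrees of freedom, and p-values were adjusted over all genes tested in each of 8 comparisons at 0.05. The code was tested on simulated data. Genes named from lists are up to 3 called per comparison with the smallest p, and those most like each gene are among the 3 with the highest r, of which 1 is not reported here; Slc38a2 and the fibroblast markers were named after their values were seen. The 10 genes and the lists were chosen with earlier results of these data known. Alternatives were RLE and ERCC scaling, no filter and one of 5 CPM in 3 libraries, DESeq2 1.42.0, only the groups compared, the replicate block and leaving out each library. Same-numbered libraries of 2 groups deviated together, with correlations over 0.1 in all 3 pairs for RC siDux against RC control (0.241, 0.217 and 0.305), LINE1 siDux against LINE1 control (0.543, 0.330 and 0.616) and RC siNcl against RC siDux (0.198, 0.317 and 0.410). In the other comparisons replicate 1 had 0.0387 to 0.0901, and replicates 2 and 3 were over 0.1. The ERCC share was 0.273% to 0.363% in libraries numbered 1 and 0.423% to 0.652% in the others. The labels name no shared culture or day, so a pairing by number can be neither assumed nor excluded. Promoter windows came from RefSeq (GRCm38.p6).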

Additional observations from a re-analysis of the deposited data

How the results depend on the processing

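In RC siNcl against RC control, 6 to 8 of the 10 genes were lower and 0 to 1 higher when each library was left out in turn, 2 were lower with ERCC scaling, 7 with a filter of 5 CPM in 3 libraries, and 1 was higher, Sesn2, with the replicate block. In LINE1 control against RC control, 0 were lower with ERCC scaling or only the groups compared, and 0 to 1 higher without each library. Without both LINE1 ASO libraries numbered 3, chosen after seeing the data, 1 was higher there, 1 was higher and 0 lower in LINE1 siDux against RC siDux, and 9 were higher in LINE1 control against RC siNcl. In LINE1 siDux against RC siDux, 0 were lower with ERCC scaling and 0 to 1 without each library. In LINE1 control against RC siNcl, 3 were higher with ERCC scaling and 4 to 9 without each library. In RC siNcl against RC siDux, 5 were lower with the replicate block, 5 with DESeq2 and 6 with only the groups compared. The block changed no other call, except Cebpg in LINE1 control against RC siNcl (edgeR adjusted p = 0.0345). There the correlations of same-numbered libraries were 0.0387, 0.262 and 0.236, which do not settle whether the numbers pair the libraries. ERCC scaling moved the median log2 change of all genes to 0.03 in RC siNcl against RC control, where the 10 genes had −0.87, 0.31 in RC siDux against RC control, 0.22 in LINE1 control against RC control and −0.27 in RC siNcl against RC siDux. Counts over all genes moved too. With ERCC scaling, higher and lower calls were 563 and 68 in RC siNcl against RC control (2461 and 2298 with TMM), 187 and 10 in RC siDux against RC control (895 and 661), 278 and 2 in LINE1 control against RC control (1374 and 1424), 38 and 3 in LINE1 siDux against RC siDux (340 and 110), 0 and 6 in LINE1 siDux against LINE1 control (80 and 45), 106 and 19 in LINE1 control against RC siNcl (1389 and 1534) and 62 and 51 in RC siNcl against RC siDux (1401 and 1044). In a fit of the groups compared alone, LINE1 control against RC control had 364 and 32, and RC siDux against RC control 201 and 41. In LINE1 siDux against RC siDux the replicate block gave 766 and 463 and DESeq2 562 and 329, and in LINE1 siDux against LINE1 control they gave 305 and 141, and 221 and 101. Without LINE1 control replicate 1, LINE1 control against RC control had 473 and 113. Of 80 pairs of gene and comparison, 28 were called in the main or any alternative, and 0 of their values changed sign; 74 of 1150 values changed sign in the other pairs, of size 0.57 or less. Apart from the added alternative and calls named above, the cause was not tested. Vldlr had 29 to 330 and Nupr1 28 to 527 counts per library, which limits their precision.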
